A study of Caenorhabditis elegans with 3 samples.

Results

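Histone genes were examined in a map of EGL-27 binding in Caenorhabditis elegans, made by chromatin immunoprecipitation and sequencing (ChIP-seq). They were taken as the protein-coding genes whose symbol begins with his- or hil-, together with htz-1, hcp-3 and cpar-1, in the Ensembl annotation of the WBcel235 genome. This gave 83 of 19973 nuclear protein-coding genes. Of these, 66 encode core histones (17 H2A, 17 H2B, 16 H3 and 16 H4 genes), 9 encode linker histones, 5 encode H3.3-type proteins, 1 encodes the variant H2A.Z and 2 encode the centromeric H3 variant CENP-A. The linker class was set by symbol. In it, hil-1 and hil-8 had only 35.1% and 25.2% identity to the closest reference histone (H1, H2A, H2B, H3 or H4), below the 40% used to assign a type. The core genes his-73 and his-39 encode only 46 and 67 residues. The animals were whole larvae of the second larval stage (L2), of mixed sex and unknown age, of strain OP177, whose genotype is unc-119(ed3) III with the transgene wgIs177. All of them carried the transgene, from which a stable line makes EGL-27 fused at its C-terminus to GFP and FLAG. The antibody is labelled egl-27. There was 1 group of 3 biological replicates, and chromatin was sheared by sonication. Binding in whole animals is a sum over all tissues, so that strong binding in few cells and weak binding in many cannot be told apart.

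EGL-27 resembles the MTA proteins, subunits of the nucleosome remodelling and deacetylase complex NuRD, and has a zinc finger of the GATA type. Histones package DNA into nucleosomes, in which H2A, H2B, H3 and H4 form the core and a linker histone sits where the DNA enters and leaves. Core histone genes of animals are mostly present in many near-identical copies, are transcribed mainly while DNA is replicated, and give messenger RNAs that end in a short stem-loop in place of a poly(A) tail. Variants such as H3.3 and H2A.Z are made and deposited outside S phase as well, and CENP-A marks the centromere. In the L2 larva, many somatic blast cells and the germ line divide.

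The authors deposited a set of peaks kept at an irreproducible discovery rate (IDR) threshold, which holds 1997 regions with signal values of at least 34.8 and a median of 50.8. Their longer list, made from all replicates pooled and holding background as well as peaks, has 30000 regions with signal values from 6.68 and a median of 10.7. The signal is the authors' own value for each region, with no scale named, and it is compared here only within a list. The lists of replicates 1, 2 and 3 hold 13245, 30000 and 30000 regions. The number of reads behind any list is unknown from the files. A histone gene was counted as holding a region when the region's summit lay between 1000 bp before and 200 bp after its 5′ end, and every gene with the summit in its window was counted. Core genes without an intron are annotated with the coding sequence alone. Their 5′ end is therefore the start codon, and distances and promoter windows are not measured from the start of the transcript.

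The sequences at the summits are shown first, because the histone regions differ in which promoter sites they hold. Each is the reference sequence (RefSeq, WBcel235, which is ce11) of 101 bases centred on the summit, written 5′ to 3′ on the strand of the gene named first. The capitals mark matches on either strand to any of 8 sites. These are the TATA-box letters (TATAAA), the CCAAT box, the octamer ATGCAAAT, a site of GATA factors (GATAAG), the E2F-type sites TTTGGCGC and TTTCCCGC, the E-box letters (CACGTG) and, chosen after these sequences were read, TGTGTCCC. The first 4 come from regions of the IDR set at chrV:9546976-9547076, chrIV:4445881-4445981, chrIV:6646124-6646224 and chrX:14489969-14490069, all on the plus strand. The fifth, at chrV:9545419-9545519, belongs to the strongest histone region outside the IDR set, and the sixth, at chrIV:8334182-8334282, to a weaker one between an H3 and an H4 gene. The region of the IDR set between his-67 and his-68 is not printed.
his-37: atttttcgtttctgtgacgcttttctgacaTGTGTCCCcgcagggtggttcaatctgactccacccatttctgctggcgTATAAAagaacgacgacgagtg
htz-1: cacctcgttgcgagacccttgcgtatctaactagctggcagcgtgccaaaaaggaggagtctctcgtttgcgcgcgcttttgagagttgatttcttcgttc
hil-7: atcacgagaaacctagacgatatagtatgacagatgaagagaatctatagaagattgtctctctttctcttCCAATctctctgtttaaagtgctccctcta
his-24: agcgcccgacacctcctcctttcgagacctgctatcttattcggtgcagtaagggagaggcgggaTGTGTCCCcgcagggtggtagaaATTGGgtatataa
his-41 and his-35: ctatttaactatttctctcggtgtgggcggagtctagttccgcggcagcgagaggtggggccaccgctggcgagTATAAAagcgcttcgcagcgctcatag
his-32 and his-31: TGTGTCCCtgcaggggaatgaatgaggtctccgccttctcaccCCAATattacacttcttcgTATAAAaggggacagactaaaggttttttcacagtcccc
The stretches of his-37, which encodes H4, and his-24, which encodes a linker histone, share TGTGTCCC followed by the same run of letters, and the stretch between his-31 and his-32 begins with the same 8 letters. The stretches of htz-1, of hil-7 and of the pair his-35 and his-41 do not hold these letters.

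Windows of 6 histone genes held a summit of the IDR set, which is 7.23% of the 83, against 6.04% of all protein-coding genes. These 6 genes share 5 peaks at 5 of the 30 places in the genome where histone genes lie, when genes with 5′ ends within 10 kb of the next are joined to a cluster. The genes were his-37, htz-1, his-67, his-68, hil-7 and his-24. Of the 6, 3 are core genes, 2 are linker genes and 1 encodes H2A.Z. The share of the 83 lay close to that of all genes. The replicates limit the count: when a peak had to overlap one of the 1997 strongest regions of both other replicates, 4 of the 6 genes were left without replicate 1, 2 without replicate 2 and 2 without replicate 3. Over all genes, the 1207 called genes fell to 772, 341 and 353 in the same order.

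The strongest region at a histone gene was that of his-37, which encodes H4. It ranked 63 of 1997 in the IDR set with a signal of 156, at chrV:9546906-9547131, and its summit lay 79 bp upstream of the 5′ end. In replicates 1, 2 and 3 the region had signals of 17.7, 53.0 and 83.8 and ranks of 64, 127 and 53. It was therefore among the strongest regions of every replicate, and it had the highest signal of the 32 pooled regions at histone genes in each of them. No other protein-coding gene had the summit in its window. The protein of his-37 is identical to that of the other 15 H4 genes, but his-37 has an intron in its coding sequence and no stem-loop after its stop codon.

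The region at htz-1, which encodes H2A.Z, was next in each of the 3 replicates. It had a signal of 86.0 and rank 352 in the IDR set, at chrIV:4445830-4445997. Its signals were 9.72, 31.8 and 44.7 in replicates 1, 2 and 3, with ranks of 373, 478 and 368. The summit lay 285 bp upstream of htz-1 and 191 bp upstream of wapl-1, a homologue of the cohesin release factor WAPL, so that it was nearer to wapl-1. When each summit was given only to the nearest 5′ end, htz-1 was not called.

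The divergent genes his-67 (H4) and his-68 (H2A) shared the next region, with a signal of 73.0 and rank 491, at chrI:9988921-9989009. The summit lay 224 bp upstream of his-67, 145 bp upstream of his-68 and 815 bp upstream of alg-5, which encodes an Argonaute protein. Its signals were 4.51, 31.6 and 35.3 in replicates 1, 2 and 3. The ranks of 482 and 605 in replicates 2 and 3 lay within the size of the IDR set, and the rank of 3529 in replicate 1 did not.

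The other 2 genes encode linker histones. At hil-7 the region had a signal of 46.3 and rank 1180, at chrIV:6645999-6646348, with its summit 138 bp upstream. No region overlapped it in the list of replicate 1, and replicates 2 and 3 gave 28 and 14.0, with ranks of 646 and 3337. A small nucleolar RNA gene, C01B10.48, lay 425 bp from the summit. At his-24, which encodes the linker histone H1.1, the region had a signal of 41.7 and rank 1436, at chrX:14489844-14490193, with its summit 75 bp upstream. Replicates 1, 2 and 3 gave 4.75, 21.4 and 12.1, with ranks of 3117, 1113 and 4281. Both linker regions thus reached the rank of the IDR set in replicate 2 only.

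**Figure D1:**
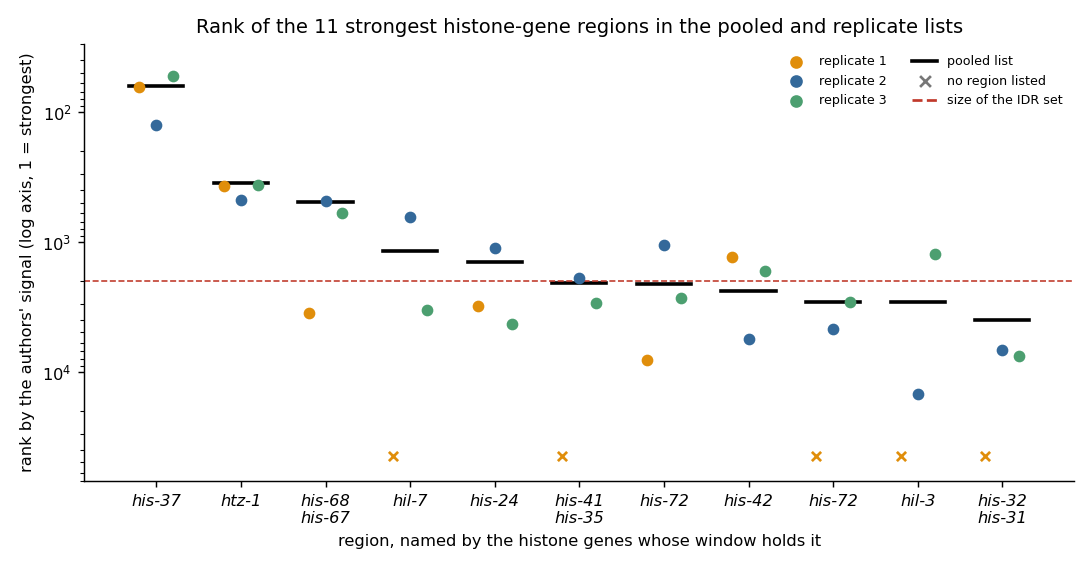
Rank by the authors' signal (log axis, the strongest at the top) of the 11 strongest pooled regions in histone gene windows, with points for replicates 1, 2 and 3, black lines for the pooled list and crosses where a replicate list has no region there. The regions of his-37 and htz-1 lie above the dashed line at rank 1997 in every replicate, and 5 of the 11 regions have no counterpart in replicate 1.

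Several histone regions lay just below the IDR set, whose lowest signal is 34.8. The region between his-41 (H2B) and his-35 (H2A), next to his-37 in the same cluster, had a signal of 34.1 and rank 2064. It was not listed in replicate 1 and had signals of 16 and 14.8 in replicates 2 and 3. The gene C50F4.6 also had this summit in its window, 623 bp upstream of its 5′ end. The cluster thus held the strongest histone region and the strongest one outside the IDR set, and all 3 of its genes have an intron and lack a stem-loop. At his-72, which encodes an H3.3 protein, a summit 666 bp upstream had a signal of 33.6 (rank 2123), with 2.85, 22 and 15.6 in replicates 1, 2 and 3. It was also 740 bp upstream of rpt-6, a proteasome ATPase subunit gene. A further summit 80 bp upstream of his-72 had a signal of 27.8, with signals of 9.59 in replicate 2 and 15 in replicate 3 and no region in the other. The H3 gene his-42 had a signal of 31.3 (rank 2382) 438 bp upstream, with a small nuclear RNA gene, C47F8.9, 170 bp from the summit. The regions that overlap it had signals of 6.47, 8.67 and 20.4 in the 3 replicates. They were among the strongest 1997 regions of replicates 1 and 3 but not of replicate 2. Only the replicate 3 summit lay next to this pooled summit, and those of replicates 1 and 2 lay 234 and 132 bp from it. The replicate 1 summit was nearer to a weaker pooled summit, 700 bp upstream of his-42 and within both C47F8.9 and R05D7.8. That weaker region had a signal of 19.7 and 36.3% unique words. Overlap alone therefore does not place the replicate 1 signal at the summit 438 bp upstream.

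With the pooled list, summits lay in the windows of 31 histone genes, or 37.3%, against 40.1% of all genes. This longer list holds background by design, so a place in it is not a peak by the authors' threshold. Of the 32 pooled regions at histone genes, 7 had the highest deposited −log10 q-value, that is the lowest q-value. For 10 of the 32, all 3 replicate lists held an overlapping region. Replicates 1, 2 and 3 listed 11, 27 and 22 of the 32, and 3 were listed in none. The same shares over the whole pooled list are not given here, so these counts only describe. These counts are not independent, because 1 replicate region can overlap several pooled regions. The 3 pooled regions at his-42 shared the same regions of replicates 1 and 2, and the 2 at hil-3 shared those of replicates 2 and 3. The strongest pooled region of a histone gene had a median signal of 16.9 over the 31 genes, against 13.5 over the 8008 genes with a pooled summit. Its summit lay at a median of 134 bp upstream of the 5′ end, against 246 bp for all such genes. For core genes without an intron that end is the start codon, so the medians may not be measured from like points. When each region had to overlap one in both other replicate lists, 22 genes (26.5%, against 21.3% of all genes) were left without replicate 1, 9 (10.8%, against 8.28%) without replicate 2 and 9 (10.8%, against 8.32%) without replicate 3.

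Taken replicate by replicate, summits of the 1997 strongest regions lay in the windows of 3, 9 and 6 histone genes. These are 3.61%, 10.8% and 7.23% of the 83 (7.21% ± 3.60, SD, n = 3), against 3.88%, 6.05% and 5.69% of all genes. The histone share differed from that of all genes by less than the spread between the replicates in replicates 1 and 3, and by more than it in replicate 2. Only his-37 and htz-1 were called in all 3 replicates. Replicate 1 added his-42. Replicate 2 added his-67, his-68, hil-7, his-24, his-35, his-41 and his-72. Replicate 3 added his-42, his-67, his-68 and hil-3.

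Summits of the IDR set, held by 6.04% of all genes, lay at 3 of the 17 variant and linker genes and at 3 of the 66 core genes. Pooled summits, held by 40.1% of all genes, lay at 11 of the 17 and at 20 of the 66. These counts cannot be read as a difference between the classes, because 41 of the core windows and none of the others consist mostly of sequence that is repeated elsewhere in the genome, counted in words of 36 bases. In windows at least 90% unique, IDR summits lay at 3 of 5 core genes and 3 of 15 variant and linker genes. Pooled summits lay at 5 of 5 and 10 of 15. Among all genes with such windows the shares were 6.55% and 43.2%. The 5 core genes are the pair his-67 and his-68 and the neighbours his-35, his-41 and his-37. Some of them share summits, so no order of the classes is read from these counts either. Among H3.3-type genes, which encode the H3 placed in chromatin outside replication, 4 of 5 had a pooled summit and none had one of the IDR set. The strongest regions of these had signals of 33.6 at his-72, 18.5 at his-71, 8.06 at his-69 and 7.56 at his-70. The summit of his-69 also lay in the window of rcq-5, a helicase gene. At his-74 no summit lay in the window, but an IDR region with a signal of 55 and rank 870 at chrV:12659410-12659759 had its summit 745 bp downstream of the 5′ end, past the gene's other end.

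Among the linker genes, hil-3 had a signal of 27.6 with its summit 31 bp upstream, absent from the list of replicate 1 and with 4.97 and 24.2 in the other two. The summit at hil-1 lay 929 bp upstream with a signal of 18.2, and that at hil-5 lay 89 bp downstream with a signal of 7.18. No pooled summit lay at hil-2, hil-4, hil-6 or hil-8. Of the CENP-A genes, hcp-3 had a weak region with a signal of 6.97, close to the lowest of the pooled list, and cpar-1 had none. The regions of variant and linker genes thus ranged from rank 352, at htz-1, to near the bottom of the pooled list.

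**Figure D2:**
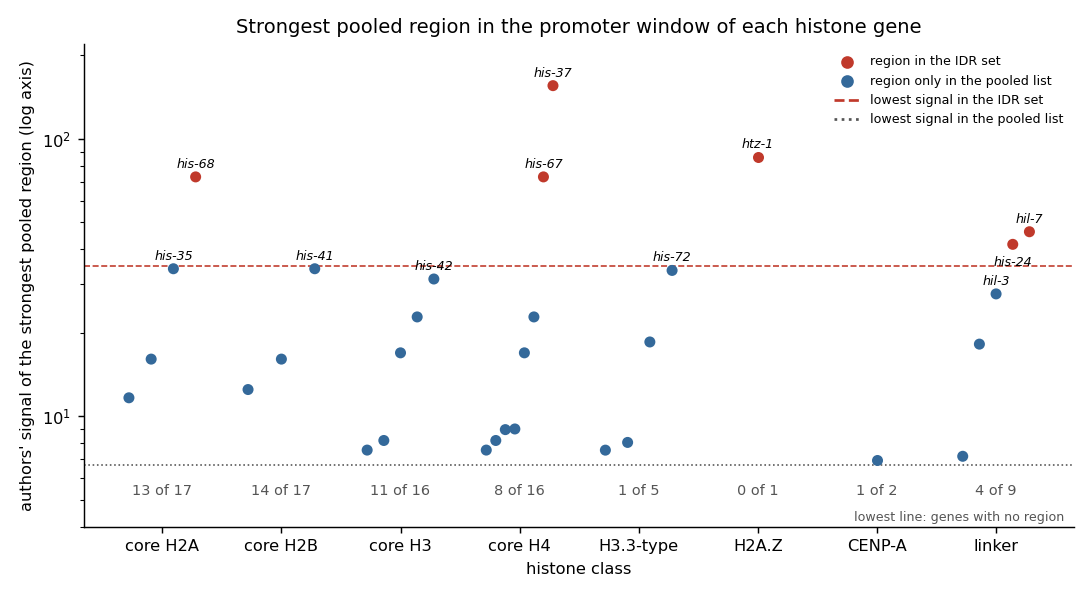
Authors' signal (log axis) of the strongest pooled region in the window of each histone gene, by histone class, with red points for regions of the IDR set and blue points for others. The dashed and dotted lines mark the lowest signals of the IDR set (34.8) and the pooled list (6.68), and the counts give the genes with no region, from 0 of 1 for H2A.Z to 14 of 17 for core H2B.

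Many histone genes are near-identical copies, so that a short sequence read from one can match several places. For each window, the share of its words of 36 bases that occur once in the genome, counting both strands, was taken as a measure of this. Under 50% of the words were unique in 41 of the 83 histone windows (49.4%), against 3.04% of all genes. All 41 belong to core genes. Among them 0 had a summit of the IDR set, where 0.824% of all genes with such windows had one, and 1 had a pooled summit (2.44%, against 4.28%). That gene was his-26 (H4), with a summit 964 bp upstream and a signal of 8.96. How long the reads were, and how those matching several places were treated, is not given in the sources used here. Their part in the low count was not tested.

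Where the sequence was more nearly unique, histone genes held pooled regions more often than all genes with windows like theirs. With 50% to under 90% of words unique, 15 of 22 histone genes (68.2%) had a pooled summit, against 24.2% of all such genes, and 0 had one of the IDR set, against 3.2%. With 90% or more unique, 15 of 20 (75%) had a pooled summit, against 43.2%, and 6 of 20 (30%) one of the IDR set, against 6.55%. With words of 50 and 100 bases this band grew to 29 and 36 histone genes with the same number of IDR calls, so that the share was 20.7% and 16.7%, against 6.46% and 6.34% of all such genes. Of these 20 genes, 15 are variant or linker genes. The 5 core genes among them, his-67, his-68, his-35, his-41 and his-37, all had a pooled summit, and 3 had one of the IDR set. These bands of unique sequence were chosen after the data had been seen, and neighbouring genes share summits, so the counts are not independent. Shares over all 83 genes, near the background in both lists, thus combined windows with almost no regions and windows with many.

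**Figure D3:**
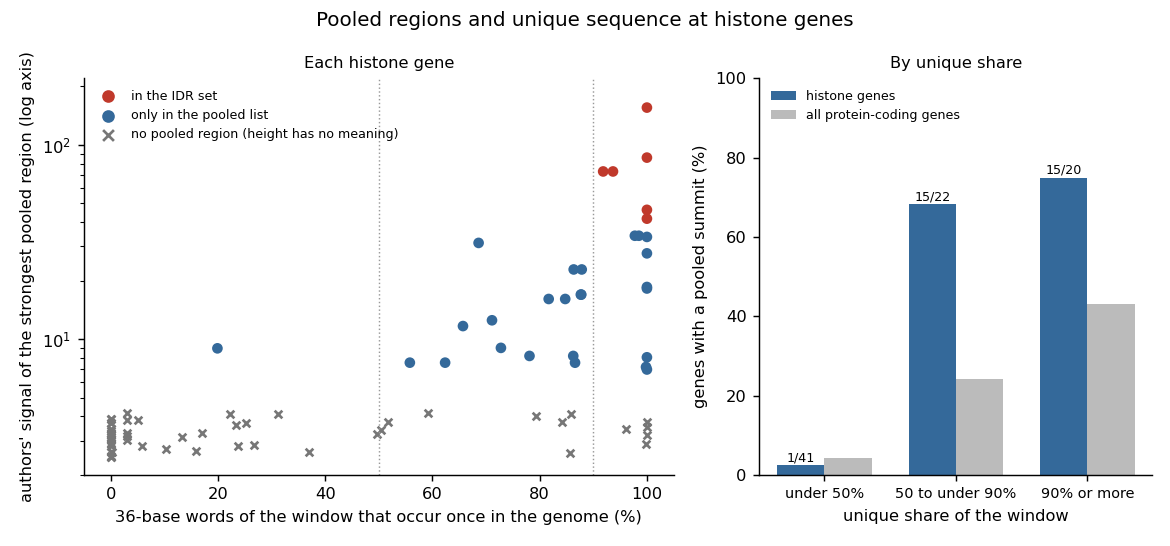
Left, the authors' signal (log axis) of the strongest pooled region of each histone gene against the percentage of 36-base words in its window that occur once in the genome, with crosses for genes without a region. Right, the percentage of histone genes (blue) and of all protein-coding genes (grey) with a pooled summit in 3 bands of that percentage, where histone genes reach 2.44%, 68.2% and 75% and all genes 4.28%, 24.2% and 43.2%.

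By cluster, 18 of the 30 held a pooled summit in the window of at least 1 gene and 12 did not. No background for clusters of other genes was counted, so the cluster counts only describe. Of the 14 clusters with 2 or more genes, which hold 67 genes, 9 had one and 5 had none. The 5 without hold 26 genes. The largest cluster, on chromosome II with 13 genes (chrII:13817760-13828697), had pooled summits at his-26 and at his-42 alone, and his-42 lies at its end. The 6 genes of the cluster at chrV:8847393-8854053 had 0% unique words over the whole cluster, and the nearest pooled summits lay 40.2 kb to the left and 48.8 kb to the right. The 8 genes at chrV:8889488-8898539 had 9.30% unique words and no region, with the nearest pooled summits 82.3 kb and 4.34 kb away. No region lay at a gene in the clusters at chrIV:11324056-11326998 (40.9% unique), chrIV:11337853-11341703 (48.7%) or chrIV:11400415-11407427 (62.5%).

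Other clusters held pooled regions at some or all of their genes. All 4 genes of the cluster at chrIV:7485834-7488659 (90.2% unique) had a pooled summit, with signals of 16.9 between his-60 and his-59 and 16.1 between his-61 and his-62. At chrV:16040144-16042831 (82.7%), which holds his-4, his-3, his-2 and his-1, 3 of 4 genes had one, with the strongest signal at 12.5. Both genes of the pair his-38 and his-40 on the X chromosome had 1 at 8.19. At chrV:8532715-8536716 (73.3%), 2 of 5 genes, his-6 and his-5, had one at 7.56. In the cluster of 6 genes at chrIV:8331044-8336340 (50.5%), only the middle pair, his-31 and his-32, had one, with a signal of 22.8, no region in replicate 1, and 7.79 and 8.88 in replicates 2 and 3. Some clusters had their strongest pooled region near a gene but outside every window, with signals of 13.0 in the cluster of his-6 and his-5, 11.2 beside his-69 and his-70, 8.87 beside his-47 and 7.75 beside his-73.

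Most core histone genes lie head to head, so that 1 summit can serve both. There were 31 such divergent pairs, with 228 to 369 bp (median 259) between the 5′ ends. A pooled summit lay between the 5′ ends of 8 pairs, and a summit of the IDR set lay between those of 1, his-67 and his-68. The sequence between the 5′ ends was at least 80% unique in 11 pairs, and all 8 pairs with a summit were among these. In the other 20 pairs at most 13.8% was unique, and 0 had a summit. How often divergent pairs of all genes hold such summits was not counted, so these counts have no background beside them. The 3 pairs with mostly unique sequence and no summit were his-2 and his-1, his-63 and his-64, and his-8 and his-7. In the 8 pairs the summit stood at 47.6% to 77.3% of the way from the left to the right 5′ end.

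**Figure D4:**
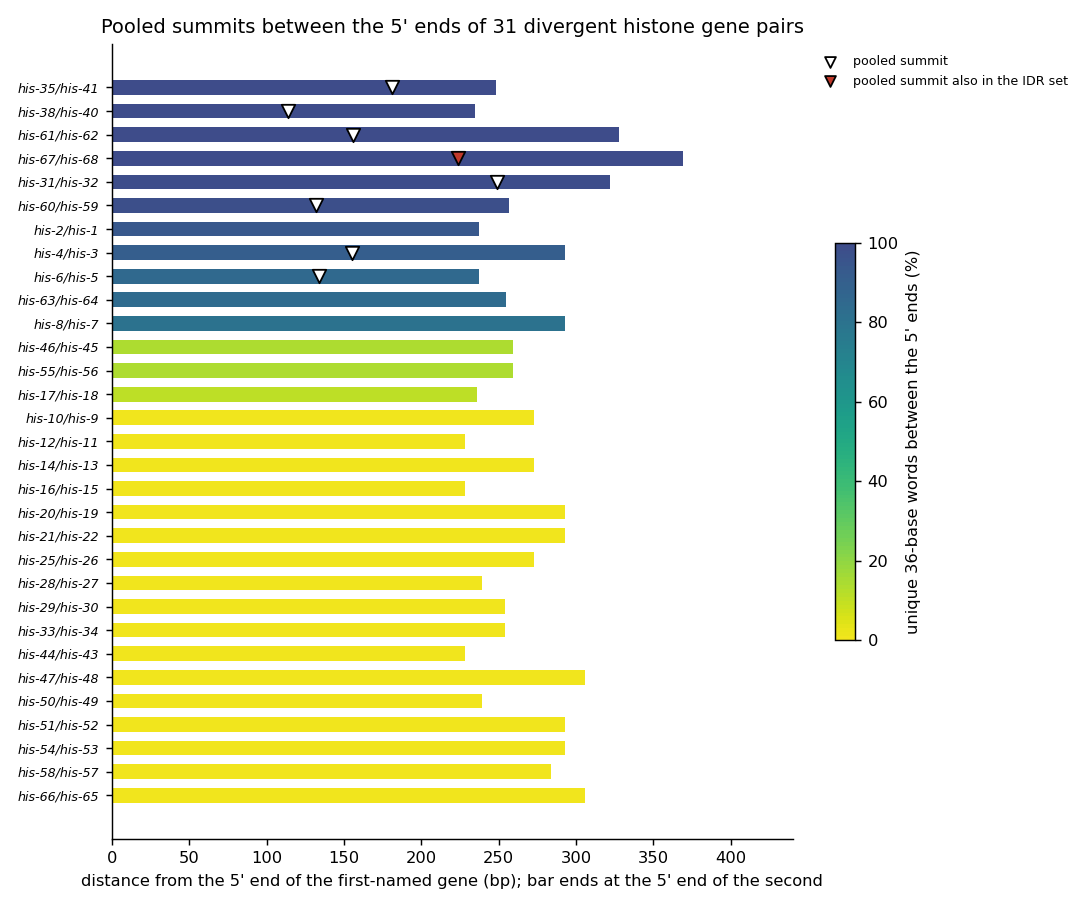
Distance in bp between the 5′ ends of the 31 divergent histone gene pairs (bars), coloured by the percentage of unique 36-base words between them, with triangles at pooled summits. The 8 triangles lie in the darker bars at the top, and the red one, of the pair his-67 and his-68, is the only one in the IDR set.

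The repeated promoters are shown by 3 of them, all without a summit between their 5′ ends in any list: those of his-16 (H2A) and his-15 (H2B) at chrII:13818144-13818370, of his-10 (H4) and his-9 (H3) at chrII:13823376-13823647, and of his-21 (H2A) and his-22 (H2B) at chrV:8892267-8892558. The first and second occur 3 times in the genome without a mismatch, and the third 4 times. Each runs on the plus strand from the 5′ end of the first-named gene, which points to the left, to that of the second, and the capitals are as above.
his-16 and his-15: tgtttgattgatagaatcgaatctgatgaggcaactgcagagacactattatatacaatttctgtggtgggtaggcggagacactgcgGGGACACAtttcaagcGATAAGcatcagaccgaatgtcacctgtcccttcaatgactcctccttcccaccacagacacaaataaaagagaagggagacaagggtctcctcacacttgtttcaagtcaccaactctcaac
his-10 and his-9: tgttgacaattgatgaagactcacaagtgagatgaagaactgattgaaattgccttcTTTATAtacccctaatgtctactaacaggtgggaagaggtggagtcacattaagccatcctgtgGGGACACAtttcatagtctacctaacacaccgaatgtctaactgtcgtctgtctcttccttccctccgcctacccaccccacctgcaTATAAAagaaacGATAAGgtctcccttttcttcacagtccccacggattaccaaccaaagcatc
his-21 and his-22: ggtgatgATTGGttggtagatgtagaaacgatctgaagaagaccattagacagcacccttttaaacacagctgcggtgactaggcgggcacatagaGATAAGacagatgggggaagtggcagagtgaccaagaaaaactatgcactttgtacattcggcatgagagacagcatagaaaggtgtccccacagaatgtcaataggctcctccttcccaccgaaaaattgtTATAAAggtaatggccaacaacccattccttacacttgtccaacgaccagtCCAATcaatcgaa
The first and second hold GGGACACA, which is TGTGTCCC read on the other strand, as well as GATAAG. The third holds the GATA-factor, TATA-box and CCAAT letters but not all 8 letters of TGTGTCCC. In all, 17 of the 31 pairs had a sequence between the 5′ ends that occurs more than 1 time in the genome.

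TGTGTCCC was seen in the printed sequences and then counted, so its counts describe and test nothing. It occurred on either strand in 47 of 83 histone promoters (56.6%), taken as the 250 bp before and 50 bp after the 5′ end, and in 0.621% of all promoters. The 47 have 32 different promoter sequences, because copies repeat. They belong to 41 core genes, 5 linker genes and his-69. Shortened to GTGTCCC, the letters occurred in 55 histone promoters (66.3%), against 1.51% of all. TGTGTCCC lay within 100 bp of the summit of 3 of the 5 histone peaks of the IDR set, those of his-37, his-67 with his-68, and his-24, against 0.951% of the 1997 IDR summits. Of the 32 pooled regions at histone genes, 9 had it within 100 bp. The sites of these 9 were centred from 46.5 bp on one side to 76.5 bp on the other side of the summit. Among histone genes, 4 of the 47 with these letters and 2 of the 36 without them had an IDR summit. Windows at least 90% unique belonged to 9 of the 47 and 11 of the 36, so no difference is read from these counts. Among all genes, 11.3% of those with the letters and 6.01% of those without had one. These shares include the histone genes. Among the other genes an IDR summit lay at 10 of 77 with the letters and 1191 of 19813 without.

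Of the other sites counted, TATAAA occurred in 53 histone promoters (63.9%, against 38.0% of all), CCAAT in 45 (54.2%, against 45.7%) and GATAAG, the site of GATA factors, in 28 (33.7%, against 16.8%). All 28 with GATAAG are core genes, and many are copies of the repeated promoters. GATAAG lay within 100 bp of none of the 5 histone summits of the IDR set, against 12.7% of the IDR summits. The octamer ATGCAAAT, a site of vertebrate H2B promoters, occurred in 0 histone promoters, against 2.87% of all. The E2F-type sites TTTGGCGC and TTTCCCGC occurred in 1 histone promoter each, against 0.946% and 1.57%, and the E-box CACGTG in 1, against 5.84%. TTTCCCGC lay within 100 bp of the his-37 summit, TATAAA at his-37 and at his-68 with his-67, and CCAAT at hil-7 and his-24. Both strands were searched for each site.

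The stem-loop that ends replication-dependent histone messenger RNAs was sought in the 150 bp after each stop codon. It was found in 61 histone genes (73.5%), against 0.31% of all protein-coding genes, or 62 genes with the histone genes included. In 52 of the 61 it had the same letters, shown here for his-16 (chrII:13817713-13817728, minus strand), with the stem in capitals and the loop in lower case.
his-16 stem-loop: GGCCCTctttAGGGCC
Of the 66 core genes, 60 had a stem-loop, and among the 17 others it was found only at his-69. The search was for a pattern of letters. The arms of the stem do not pair in full at his-69, nor in the form found at his-39, which 4 genes hold. Among the 61 genes, no fully paired stem was found within the 150 bp at his-39, his-68 and his-69. IDR summits lay at 2 of the 61 genes with a stem-loop, his-67 and his-68, and at 4 of the 22 without one, beside 6.04% of all genes. Pooled summits lay at 18 of the 61 (29.5%) and 13 of the 22 (59.1%), beside 40.1% of all genes. The windows of the 2 classes differ in sequence: the median share of unique words was 19.9% with a stem-loop and 100% without, and the part of this in the counts was not tested. The 6 core genes without a stem-loop are his-35, his-37, his-41, his-47, his-57 and his-73.

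Proteins that escort, place and process histones were counted as other genes of the pathway. Of 24 such genes, 6 (25%) had an IDR summit in the window and 19 (79.2%) had a pooled one, beside the 6.04% and 40.1% of all genes. The strongest was at lin-53, with a signal of 74.1. It encodes a histone-binding WD40 protein that is shared by chromatin assembly factor 1 and NuRD. Signals of 51.1 and 37.9 were found at ruvb-2 and ruvb-1, whose products belong to complexes that exchange H2A.Z. The others were nasp-2 at 39.8, which encodes an H3 chaperone, chaf-2 at 37.9, a subunit of chromatin assembly factor 1, and emb-5 at 36.6, the homologue of the elongation factor and histone chaperone SPT6. The summit at cdl-1, which encodes the protein that binds the histone stem-loop, was in the pooled list with a signal of 29.1, below the IDR set. Most of these genes have unique windows, and the list was chosen with earlier results of these data known.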

How the data were processed

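ChIP-seq peak lists of 3 biological replicates of 1 group were used. Per the deposited notes, alignments of each replicate and of all pooled were set against a control to list peaks with background, and an IDR threshold then gave the final set, all on ce11. The aligner, caller, threshold and read length were not given in the sources used here. Neither the control nor the ce10 lists were analysed here. The authors deposited for every region a signal on an unnamed scale, a −log10 q-value and the offset of the summit from the region's start. Read counts are not part of the lists, so depth is unknown and no interval is given.

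Summits were assigned to 5′ ends of protein-coding genes (Ensembl release 115), 1000 bp upstream to 200 bp downstream, every gene counted. Symbols were matched by position to RefSeq, which separates copies that share an Ensembl symbol: all 83 matched, and 22 differ from the Ensembl symbol. A replicate's value at a region is that of its strongest region that overlaps it by at least 1 bp. Unique sequence was counted as words of 36 bases found once on both strands. Window assignment and word counting were tested on simulated data. The stem-loop was sought as a pattern of letters: GGYYYT, a loop of 4 letters without G, and ARRRCC. Here Y is C or T and R is A or G. The arms of 6 bases did not have to pair in full. With 1 group no test between groups exists, so counts are set beside those of all genes and no p-value is given. Named genes are the histone genes with an IDR summit, the strongest region of each cluster, variant and linker genes, bound pathway genes and neighbours that share a window; others fall outside this rule and were chosen after their values were seen. The members and lists were chosen with earlier results of these data known. Alternatives were other windows, transcripts, overlaps, cutoffs, word lengths, cluster gaps and replicates left out. Python 3.11.15, pandas 2.3.3, numpy 2.4.6 and Biopython 1.88 were used.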

Additional observations from a re-analysis of the deposited data

How the results depend on the processing

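The count of 6 histone genes with an IDR summit was 6 with 500 bp upstream, 7 with 2000 bp, 6 with the 5′ ends of all transcripts, 6 with any overlap of region and window, 4 with the nearest 5′ end only and 4 in the stronger 998 peaks. In the same order, 4.74%, 8.12%, 6.63%, 6.49%, 4.57% and 3.28% of all genes were called, against 6.04%. The histone count moved to 2, his-37 and htz-1, when a peak had to overlap the strongest regions of every replicate, where 315 of all genes were left. With 50% of the peak required to overlap it moved to 1, htz-1, where 284 of all genes were left. Leaving out 1 replicate gave 2 to 4 genes and 2 to 3 clusters, against 5 clusters. Cluster gaps of 5 and 20 kb gave 5 clusters with a summit. The 31 genes with a pooled summit became 23 to 39 under the other windows and assignments and 21 among the strongest 15000 regions. They became 9 when a region had to be listed in every replicate, where 6.92% of all genes were left, and 9 to 22 with 1 replicate left out. Limited to windows at least 90% unique, the count was 15, and in windows under 50% unique it was 1; both were added after seeing the data. The mean over replicates of 6 genes with a summit among the strongest regions became 21 with each replicate's whole list, where replicates 1, 2 and 3 gave 8, 30 and 25 genes. These are 9.64%, 36.1% and 30.1% of histone genes, below the 18.9%, 40% and 39.4% of all genes, whereas the share among the strongest regions was not below that of all genes in replicates 2 and 3. Words of 50 and 100 bases left 40 and 39 windows under 50% unique, against 41, with 0 IDR summits in each case. A search for any perfect stem found 59 histone genes, against 61, but 11.5% of all genes. In promoters of 1000 bp upstream and 200 bp downstream, TGTGTCCC occurred in 48 histone genes and 1.59% of all. Leaving out a replicate keeps IDR peaks found in both others and does not recompute the IDR set, so fewer peaks are tested. With no read counts, how much of a missing region comes from depth was not tested. No paired analysis was possible because there is 1 group.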
